A study of Homo sapiens with 10 samples.

Results

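The comparison described here set the stable U2OS-PcTF line against mock-treated U-2 OS cells by RNA sequencing. U-2 OS is an established human osteosarcoma cell line that grows attached and has a mesenchymal character. PcTF is a synthetic transcription activator: the chromodomain of CBX8, which binds histone H3 trimethylated at lysine 27 (H3K27me3), joined to the mCherry red fluorescent protein and the VP64 activation domain. The U2OS-PcTF line carried PcTF at a recombination site in an isogenic U-2 OS background, under a promoter held off by the Tet repressor, and both of its libraries were made after 1 µg/mL doxycycline for 96 h. The mock library came from U-2 OS cells that received the transfection reagents without plasmid and no doxycycline, also with 96 h in the labels. It is therefore not the uninduced parent of the stable line, so that PcTF, doxycycline, the transfection reagents, and the history of the engineered line cannot be told apart in what follows. For orientation, 2 further U-2 OS libraries are given beside many of the results. The U2OS-dTF line was doxycycline-treated (1 µg/mL, 96 h) and built like U2OS-PcTF but with a truncated protein that lacks the chromodomain. The transient library is U-2 OS transiently transfected with the PcTF plasmid, also at 96 h. Both are compared with the same mock library, so these comparisons share their control and are set side by side without a test.

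The series held 10 samples, of which 2 were U2OS-PcTF libraries and 1 was the U-2 OS mock library. Of 23243 genes listed in both U-2 OS tables, 13023 reached 1 FPKM (fragments per kilobase of transcript, scaled to the mapped reads of the library) in the U2OS-PcTF mean or in mock and were kept. Of those, 10826 reached 1 FPKM on both sides, 1607 only in U2OS-PcTF and 590 only in mock, while 10211 genes stayed under 1 FPKM on both sides. Another 9 genes whose estimate had failed in a table were left out. The deposited stable column is a mean over 3 libraries, of which 1 is the transient transfection. The U2OS-PcTF level was therefore rebuilt for each gene as the mean of the 2 stable libraries alone. Differences are log2 ratios after adding 0.1 FPKM to both sides, centred on the median of genes at 1 FPKM or more on both sides; before centring that median lay 0.32 higher in U2OS-PcTF. With 1 mock library there is no spread between mock replicates, and no p-value is given anywhere.

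Polycomb group proteins keep developmental genes silent. Polycomb repressive complex 2 (PRC2) writes H3K27me3, and PRC1, through a CBX subunit such as CBX8, reads it. In PcTF the reading domain is kept and the repressive partner surface is replaced by an activator. Genes with known roles in Polycomb silencing, HOX genes, and genes that define mesenchymal, inflammatory and growth states were therefore followed by role.

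The size of 1 read, seen as the smallest regular step of the FPKM values of single-exon genes, gave the depth of each library. In units of 1e6 reads, the mock library held 4.87, the 2 stable libraries 14.5 and 13.7, the U2OS-dTF library 5.78 and the transient library 4.27. Because the stable side was deeper, a gene was more easily seen above 0 there, and a listed 0 in mock allowed a higher level than a listed 0 in U2OS-PcTF. In 1045 genes of few reads the stable sum could be split into whole reads of the 2 stable libraries. Among the 432 of these with at least 20 stable reads, both libraries lay within 2-fold of each other in 340 (78.7%), with an SD of 0.56 per library on the log2 scale. These genes have at most 65 stable reads, so this spread is that of weakly expressed genes and includes counting error. The median chi-square of their split against library depth was 2.58 times that of counting error alone. Among split genes that were kept, 22 were 2-fold higher in the mean, and in 17 of them both stable libraries were 2-fold above mock. Another 124 were 2-fold lower, and in 116 both libraries were 2-fold below mock. These genes were called from the mean of the same 2 libraries, so this agreement was partly fixed in advance. Nothing in the labels says that the 2 libraries came from separate cultures, so the spread between them may be technical.

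Most mesenchymal markers were expressed, though several were not particular to U-2 OS. Among 8 mesenchymal markers, 7 reached 1 FPKM in both U2OS-PcTF and mock, with VIM at 684 and 385 FPKM and SPARC at 355 and 271 FPKM, while COL1A2 was listed at 0 on both sides. Mock K562 leukaemia cells exceeded mock U-2 OS in VIM (487 FPKM), FN1 (51.9 and 42.9 FPKM), RUNX2 (9.13 and 7.30 FPKM) and COL1A2 (0.861 FPKM). They were lower in SPARC, COL1A1, CDH2 and CDH11, at 7.31, 0.224, 0 and 0 FPKM. None of the 8 erythroid and none of the 8 neuroblastoma markers reached 1 FPKM in U2OS-PcTF. The summed level of 7 haematopoietic markers was 10.4 FPKM in U2OS-PcTF and 9.71 FPKM in mock, against 481 FPKM in mock K562 leukaemia cells, and that of 7 epithelial markers was 13.3 and 7.23 FPKM. EPCAM alone gave 11.0 and 5.54 FPKM of these epithelial sums.

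Differences from mock followed the base composition of the transcript. With genes split into 5 equal groups by GC content, from the lowest group (median 37.8%) to the highest (median 59.0%), the median difference went from -0.33 to 0.70 in U2OS-PcTF, from -0.98 to 0.91 in U2OS-dTF, and from -0.20 to 0.38 in the transient library. Split in the same way by transcript length, it went from 0.32 in the shortest group to -0.23 in the longest. Transcript GC was known for 84.4% of kept genes. Values centred within 20 bins of GC are therefore given beside the difference of a gene where they move it by over 1.5-fold or across 2-fold, and beside the medians of several lists; the part of GC in any difference was not tested.

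**Figure D1:**
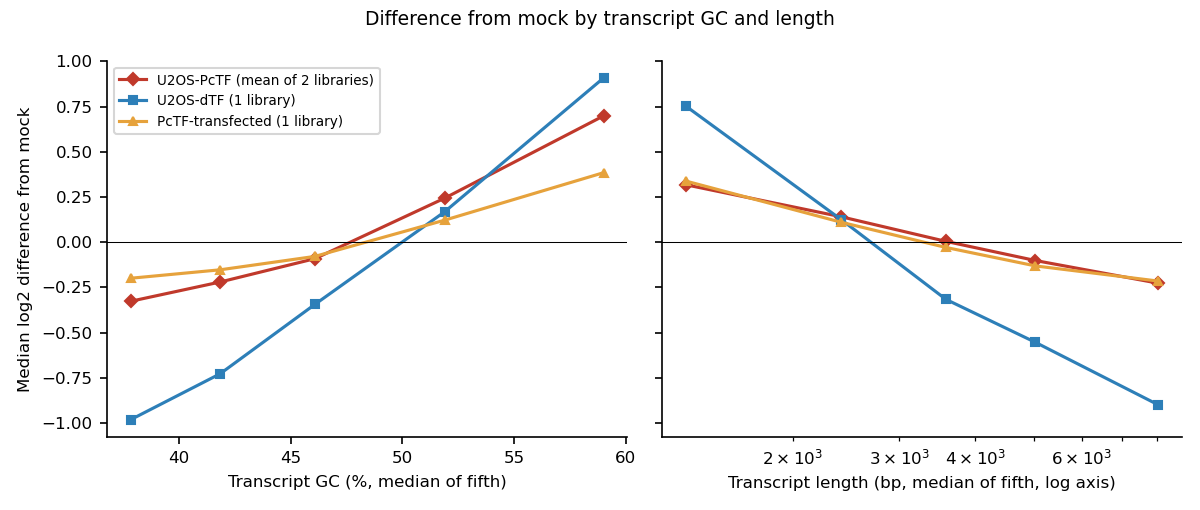
Median log2 difference from mock (y axis) in 5 equal groups of genes by transcript GC (left, percent) and by transcript length (right, bp, log axis), for U2OS-PcTF, U2OS-dTF and PcTF-transfected cells. The U2OS-PcTF medians climb from -0.33 to 0.70 with GC and go from 0.32 to -0.23 with length.

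Relative to mock, 2412 genes were at least 2-fold higher in U2OS-PcTF (18.5% of those kept) and 1485 were at least 2-fold lower (11.4%), together 3897 (29.9%). At 4-fold these numbers were 727 (5.58%) and 515 (3.95%). The filter kept 1607 genes through their U2OS-PcTF level alone and 590 through mock alone, which can add to the higher count. The higher genes were mostly weakly expressed in mock. Among genes at 1 to 5 FPKM in mock, 20.3% were higher and 15.0% lower, whereas above 100 FPKM in mock 3.05% were higher and 27.2% lower. Mock is 1 library and 1 side of the difference, so part of this trend is built into the grouping. No read was listed in mock for 325 of the higher genes, and 217 of these were small RNA genes or loci under 300 bp. Among longer genes that reached 10 FPKM on the higher side, the order turned: 91 were 4-fold higher and 131 were 4-fold lower. Centred within GC bins, 1136 genes were 2-fold higher and 1207 lower of the 10991 genes with a known GC, where the common centring had given 1883 and 1177. The split between higher and lower was thus 61.9% higher with the common centring of all genes and 48.5% with GC bins, and 78.1% without any centring.

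**Figure D2:**
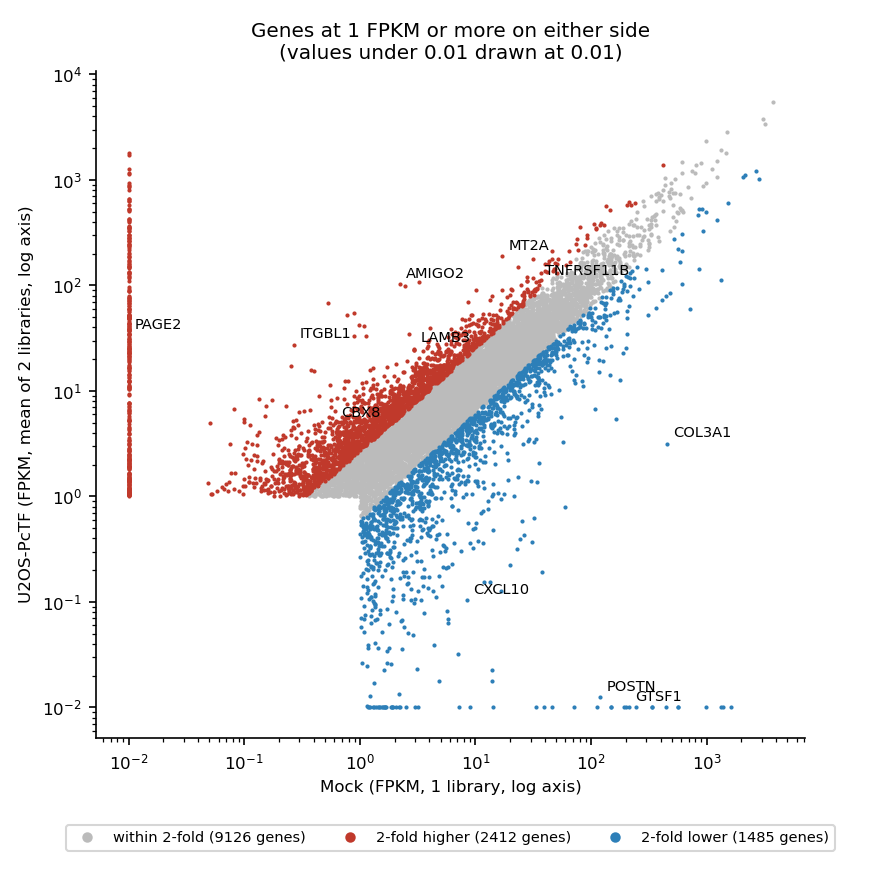
Level of each of 13023 genes in mock (x axis, FPKM) and in U2OS-PcTF (y axis, mean of 2 libraries, FPKM), both log axes, with levels under 0.01 drawn at 0.01. The 2412 genes 2-fold higher are red and the 1485 lower are blue; COL3A1 and CXCL10 sit far below the diagonal and AMIGO2 and ITGBL1 far above it.

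CBX8 supplies the chromodomain of PcTF, and reads from the transgene and the native gene add up in its value. CBX8 (hg19, chr17:77768176-77770915) was at 0.610 FPKM in mock, 4.92 FPKM in U2OS-PcTF, 1.28 FPKM in U2OS-dTF, and 6.43 FPKM in the transient library. On the scale with 0.1 FPKM added and centred it was 5.66-fold higher in U2OS-PcTF than in mock, a difference of 2.50 (1.88 within GC bins); the 95% counting interval of the read ratio was 1.78 to 3.64. Such intervals are exact binomial, are taken on the centred log2 scale without the 0.1 FPKM, and cover counting error only. The level in U2OS-dTF, whose protein lacks the chromodomain, lay nearest to mock.

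A panel of 14 Polycomb-silenced genes had been chosen for the study. Of these, 10 were kept, 4 were 2-fold higher in U2OS-PcTF and 0 were 2-fold lower, beside 18.5% and 11.4% of all kept genes, and the median difference was 0.10 beside 0.083. Counts of the lists that follow are to be read against the same 18.5% higher and 11.4% lower. LAMB3, a chain of a basement membrane laminin, went from 2.94 FPKM in mock to 25.2 FPKM in U2OS-PcTF, a difference of 2.73 (counting interval 2.38 to 3.18, and 1.92 within GC bins). LAMB3 was also at 24.0 FPKM in U2OS-dTF and 15.6 FPKM in the transient library, so it was above mock in each of them. CASZ1, a zinc finger transcription factor, was at 0.265 and 1.27 FPKM in mock and U2OS-PcTF, with a difference of 1.59 that became 0.78 within GC bins. CLU, which encodes the extracellular chaperone clusterin, was at 48.1 and 142 FPKM, a difference of 1.24. HOXA6, a homeobox factor, was at 2.03 and 5.89 FPKM, a difference of 1.17 that became 0.36 within GC bins. HOXA6 was at 0.288 FPKM in U2OS-dTF, below its mock level, and at 4.29 FPKM in the transient library.

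Of the remaining panel genes, RUNX3, a Runt-family transcription factor, did not reach 1 FPKM but lay above mock, at 0.151 and 0.992 FPKM. Its difference was 1.80 (counting interval 0.81 to 4.69, from 3 mock reads) and 0.99 within GC bins. The adhesion molecule CADM1 was at 28.9 FPKM in mock and 21.03 FPKM in U2OS-PcTF, a difference of -0.78. TRIM22, an interferon-induced restriction factor, was at 13.8 and 11.1 FPKM (-0.63), although it stood at 76.2 FPKM in the transient library. The interferon regulatory factor IRF8 gave -0.55 and the stress-induced factor ATF3 gave -0.64, and both counting intervals crossed 0. WT1 and HK2 gave 0.36 and -0.15, also with intervals across 0. CDKN2A was listed at 0 in all 4 values and CDH1 was at 0.0888 and 0.182 FPKM. HOXB4 had no read in mock and 0.371 FPKM in U2OS-PcTF, a level too low to bound a fold against 0 reads in the shallower library. The control genes were not flat either: GAPDH gave 0.60, CHMP2A 0.37 and ACTB, a cytoskeletal actin, 1.38 (422 and 1376 FPKM), and within GC bins these were 0.02, -0.20 and 1.00.

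Among the subunits of PRC1, 21 were kept, 4 were 2-fold higher and 2 were 2-fold lower. Besides CBX8, the chromodomain subunit CBX6 went from 0.401 to 4.78 FPKM (2.96, or 2.15 within GC bins), and it was at 3.77 FPKM in U2OS-dTF and 0.609 FPKM in the transient library. PHC2 and PHC3 are alternative polyhomeotic subunits, and they differed in opposite directions. PHC2 was at 3.73 and 13.1 FPKM in mock and U2OS-PcTF (1.46, but 0.66 within GC bins). PHC3 was at 22.97 and 5.63 FPKM (-2.33). None of 11 kept PRC2 genes was 2-fold different, and the median was 0.27. EED, which binds H3K27me3 within PRC2, was at 6.57 and 13.1 FPKM (0.67), and at 75.9 FPKM in U2OS-dTF. Of 12 kept genes for H3K27 demethylases and the opposing trithorax complexes, 4 were higher and 0 lower, with a median of 0.66 that became 0.25 within GC bins. The menin gene MEN1 had the largest difference of these, from 2.92 to 12.2 FPKM (1.70, or 0.89 within GC bins).

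The HOX clusters, classical Polycomb targets, differed from mock gene by gene. In the HOXC cluster, 5 of 7 kept genes were 2-fold higher and 0 lower, with a median of 1.35 (0.91 within GC bins). HOXC6 was at 3.63 FPKM in mock, 18.4 FPKM in U2OS-PcTF, 14.1 FPKM in U2OS-dTF, and 7.24 FPKM in the transient library. HOXC4 was at 0.129 FPKM in mock, about 1 read, and 2.42 FPKM in U2OS-PcTF, with a counting interval of 1.32 to 9.15 around the read ratio. HOXC4 and HOXC6 are listed at the same locus, so reads could be split between them and the HOXC count overstates the separate values. In the HOXA cluster, 2 of 10 were higher and 3 were lower, and the lower ones included the posterior gene HOXA13, at 18.7 and 2.55 FPKM (-3.15). HOXA13 was at 0.149 FPKM in U2OS-dTF and 2.83 FPKM in the transient library. HOTTIP, a long non-coding RNA transcribed next to HOXA13, was at 1.495 and 0.281 FPKM (-2.39). In HOXB 2 of 7 genes were higher and 0 lower, with HOXB3 at 7.13 and 19.4 FPKM (1.11, or 0.73 within GC bins) and a list median of -0.14 (-0.77 within GC bins), and in HOXD 1 of 4 was higher and 1 lower, with HOXD10 at 9.72 and 3.39 FPKM (-1.82). U2OS-dTF levels of HOXC6, HOXC9, and HOXB3 were also above mock.

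Among 44 kept developmental transcription factors outside the HOX clusters, 6 were higher and 7 lower. SOX2, a pluripotency and neural factor, was at 0.266 FPKM in mock, 5.16 FPKM in U2OS-PcTF, 0.149 FPKM in U2OS-dTF and 0.606 FPKM in the transient library. Its difference was 3.52 with a counting interval of 2.39 to 6.24 from 3 mock reads. GATA6, an endoderm factor, and LHX2, a LIM homeobox factor, were at 5.85 and 4.53 FPKM in mock and at 0.0632 and 0.111 FPKM in U2OS-PcTF. For GATA6 the stable libraries held 5 and 1 reads, and for LHX2 4 and 3 reads, beside 94 and 49 in mock. The LHX2 difference was -4.78, or -5.58 within GC bins.

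By rule, the 20 genes with the largest and the 20 with the smallest difference were taken among 6068 genes at 10 FPKM or more on the higher side with a locus of at least 300 bp. PAGE2 (chrX:55115497-55119260), a cancer-testis gene normally silent outside the germ line, was listed at 0 in mock and in the transient library, at 33.6 FPKM in U2OS-PcTF, and at 99.3 FPKM in U2OS-dTF. Against the 3 reads that a 0 allows, it was at least 14.8-fold higher in U2OS-PcTF; a near-identical neighbouring copy makes its assignment uncertain. ITGBL1 (chr13:102104966-102368794), a secreted protein with integrin-like repeats, was at 0.268 FPKM in mock and 27.5 FPKM in U2OS-PcTF (5.90). AMIGO2 (chr12:47469490-47473734), a leucine-rich adhesion molecule, was at 2.22 FPKM in mock, 103 FPKM in U2OS-PcTF, 81.6 FPKM in U2OS-dTF, and 9.30 FPKM in the transient library (5.15, interval 4.71 to 5.74). The cell adhesion gene NTM went from 2.45 to 98.4 FPKM (4.95), the retinoic acid-induced receptor GPRC5A from 3.25 to 107 FPKM (4.68), and the membrane repair gene MYOF from 0.894 to 33.2 FPKM (4.74). In U2OS-dTF, ITGBL1, NTM, GPRC5A and MYOF were at 30.4, 55.5, 109 and 29.7 FPKM. In the transient library they were at 0.306, 2.74, 7.14 and 1.55 FPKM.

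Not all leading genes stood at the same level in the other stable line. NRP1, a co-receptor for semaphorins and VEGF, was at 34.5 FPKM in U2OS-PcTF, 6.08 FPKM in U2OS-dTF, 7.44 FPKM in the transient library and 2.65 FPKM in mock. PSTPIP2, an adaptor that binds actin regulators, was at 10.6, 2.26, 3.39, and 0.726 FPKM in the same order. HRAS, the small GTPase, was at 15.8 FPKM in U2OS-PcTF and 52.0 FPKM in U2OS-dTF, beside 1.22 FPKM in mock, and its difference of 3.27 was 2.45 within GC bins. The remaining leading genes were FLJ22447, RPL13AP20 (a ribosomal protein pseudogene whose reads may belong to its parent gene), ZNF542, SYTL3, S100A2, CDC42BPB, FRMD5, FLJ44054, PTPRN, FGF1, and MYEOV, with differences from 3.51 for MYEOV to 6.45 for FLJ22447.

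**Figure D3:**
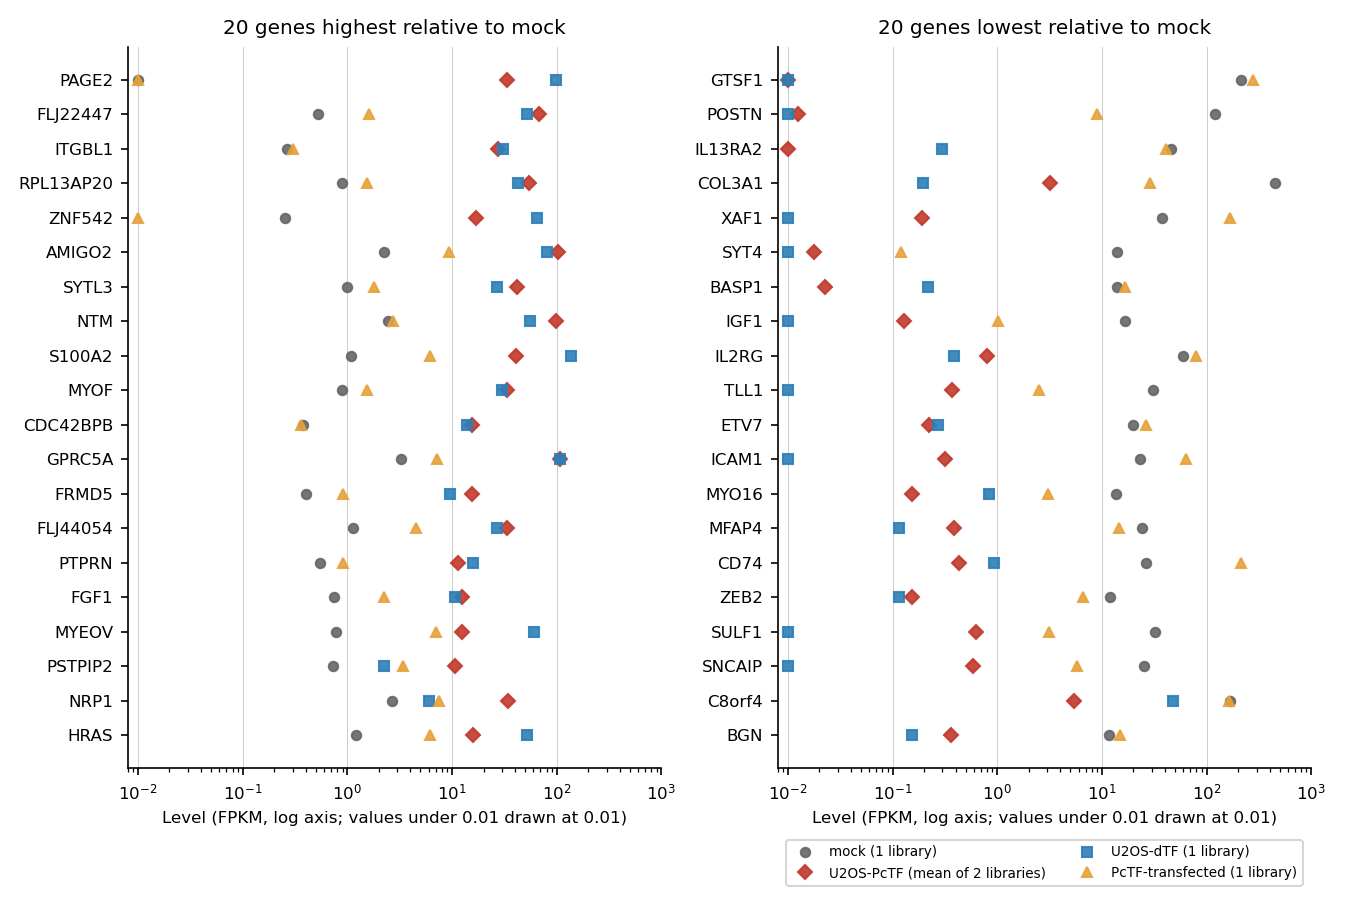
Level (x axis, FPKM, log axis) of the 20 genes with the largest (left) and smallest (right) difference between U2OS-PcTF and mock, in mock, U2OS-PcTF (mean of 2 libraries), U2OS-dTF and PcTF-transfected U-2 OS cells, with values under 0.01 drawn at 0.01. On the left PAGE2 lies at 0 in mock and at 33.6 FPKM in U2OS-PcTF, and on the right GTSF1 lies at 215 FPKM in mock and at 0 in both stable lines.

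Most of the 20 lowest genes were under 1 FPKM in U2OS-PcTF, with COL3A1 and C8orf4 above it. GTSF1 (chr12:54849736-54867386), a zinc finger protein of the germ line piRNA pathway, was at 215 FPKM in mock and 276 FPKM in the transient library. It was listed at 0 in U2OS-dTF, and its rebuilt level in U2OS-PcTF was 0. Against the 3 reads that a 0 allows over both stable libraries, GTSF1 was at least 1533-fold lower in U2OS-PcTF. That 0 is what remained after the transient level was subtracted, so the bound rests on the subtraction. POSTN (chr13:38136719-38172981), which encodes the matrix protein periostin, was at 120 FPKM in mock, 0.0125 FPKM in U2OS-PcTF, about 1 read, 0 in U2OS-dTF, and 9.00 FPKM in the transient library. IL13RA2, a decoy receptor for an interleukin, was at 45.9 FPKM in mock and under 1 read in U2OS-PcTF, at least 633-fold lower. COL3A1, a fibrillar collagen chain, stood in mock at 451 FPKM, 3.17 FPKM in U2OS-PcTF, 0.196 FPKM in U2OS-dTF, and 28.6 FPKM in the transient library (-7.43, interval -7.61 to -7.34).

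Further genes of this set carry secreted, membrane and vesicle functions. SYT4, a synaptotagmin, was at 13.99 FPKM in mock with 266 reads, while the stable libraries held 2 and 0 reads. IGF1, a growth factor, was at 16.5 and 0.128 FPKM (-6.51), and TLL1, a metalloproteinase that processes procollagen, at 31.0 and 0.371 FPKM (-6.37). ZEB2, a repressor of epithelial genes, was at 11.9 and 0.154 FPKM (-5.88), and BASP1, a membrane-bound neuronal protein, was at 13.9 and 0.0228 FPKM (-7.15). SYT4, IGF1, TLL1 and POSTN were below mock in the transient library too, at 0.120, 1.03, 2.51 and 9.00 FPKM, whereas BASP1 stood at 16.5 FPKM there. In U2OS-dTF, SYT4, IGF1, TLL1 and POSTN were all listed at 0. C8orf4 was at 166 FPKM in mock, 5.37 FPKM in U2OS-PcTF and 47.4 FPKM in U2OS-dTF. The other lowest genes were XAF1, IL2RG, ETV7, ICAM1, MYO16, MFAP4, CD74, SULF1, SNCAIP, and BGN, with differences from -7.34 for XAF1 to -4.98 for BGN.

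The promoter windows of 3 of these and the next genes are shown because they stand for a matrix gene and a chemokine that were nearly silent and a metallothionein that was high in U2OS-PcTF. They are RefSeq windows of GRCh38.p14, from 250 bases before to 50 bases after the start, with letters of the searched motifs in capitals. POSTN is at chr13:37598719-37599018 (minus strand), CXCL10 at chr4:76023448-76023747 (minus strand) and MT2A at chr16:56608334-56608633 (plus strand).

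POSTN: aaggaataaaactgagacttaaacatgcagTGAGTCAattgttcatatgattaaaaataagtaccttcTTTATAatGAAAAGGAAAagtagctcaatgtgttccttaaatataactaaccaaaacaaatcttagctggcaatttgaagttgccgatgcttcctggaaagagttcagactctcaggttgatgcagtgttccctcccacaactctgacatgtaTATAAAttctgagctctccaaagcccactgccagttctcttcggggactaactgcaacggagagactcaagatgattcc

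CXCL10: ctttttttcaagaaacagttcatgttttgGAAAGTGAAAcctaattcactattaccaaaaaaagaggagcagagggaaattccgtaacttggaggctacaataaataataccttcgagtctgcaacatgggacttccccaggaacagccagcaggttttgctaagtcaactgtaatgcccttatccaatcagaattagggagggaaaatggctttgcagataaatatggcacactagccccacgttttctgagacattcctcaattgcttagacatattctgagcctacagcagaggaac

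MT2A: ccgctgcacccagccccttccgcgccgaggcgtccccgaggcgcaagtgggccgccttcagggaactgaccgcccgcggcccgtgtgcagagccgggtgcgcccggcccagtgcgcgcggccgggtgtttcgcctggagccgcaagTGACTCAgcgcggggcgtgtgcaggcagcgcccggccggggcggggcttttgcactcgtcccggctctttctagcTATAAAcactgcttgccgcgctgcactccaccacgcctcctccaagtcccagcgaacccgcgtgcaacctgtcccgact

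Motifs were searched on both strands as TATAAA (the TATA box), as TGACTCA (AP-1), as TGACGTCA (CRE), as the core of the interferon-stimulated response element (ISRE), as the NF-kB consensus site, and as TTTCCCGC (E2F). TATAAA begins 29 bases before the start in both POSTN and MT2A, and 12.3% of all 27305 RefSeq windows hold it. TGACTCA lies in POSTN and MT2A (5.13% of all windows), and the ISRE core in CXCL10 and POSTN (3.72% of all windows). The CRE, NF-kB and E2F letters, held by 1.92%, 0.190% and 1.64% of windows, have no exact match in these 3. This does not show that the 3 windows lack an NF-kB site of other letters. None of these matches overlap. The windows of GTSF1, PAGE2 and AMIGO2 were also searched but are not shown. GTSF1 and PAGE2 had no match to any motif, and AMIGO2 had TGACTCA only. Only 43.3% of genes 4-fold higher and 57.9% of genes 4-fold lower matched a promoter window, so a comparison of motif shares between them is void.

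Interferon-stimulated genes were mostly below their mock level. In such bulk samples, fewer cells of a kind and less RNA per cell cannot be told apart. Of 48 kept, 26 were 2-fold lower and 1 was higher, where 11.4% of all kept genes were lower, and the median was -1.19 (-1.06 within GC bins). The median of the same genes was -2.79 in U2OS-dTF and 2.22 in the transient library, both relative to mock. CXCL10, a chemokine that draws T cells, was at 8.49 FPKM in mock, 0.104 FPKM in U2OS-PcTF, 0 in U2OS-dTF, and 227 FPKM in the transient library. CXCL11, its neighbour, was at 7.47, 0.303, 0, and 227 FPKM in that order. OAS2, which senses double-stranded RNA, was at 12.8, 0.755, 0, and 286 FPKM. XAF1, an interferon-induced proapoptotic gene, was at 37.5, 0.190, 0, and 169 FPKM. For each of these the 2 stable lines lay below mock and the transient library above it. Their U2OS-PcTF levels are small remainders after a far larger transient level was subtracted, so they are less certain than the digits show. The gene 2-fold higher was IFITM2, an antiviral membrane protein named after its value was seen, at 4.67 FPKM in mock and 28.0 FPKM in U2OS-PcTF (2.24, or 1.66 within GC bins).

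Inflammatory and NF-kB target genes went in both directions: 7 of 21 were higher and 6 were lower. The 4 members farthest from mock, named next, were all lower, while the upper quartile of the list was 1.09. ICAM1 and VCAM1, adhesion molecules that bind leukocytes, were at 23.1 and 6.21 FPKM in mock and 0.318 and 0.227 FPKM in U2OS-PcTF. The chemokine CCL5 was at 14.2 FPKM in mock, 0.477 FPKM in U2OS-PcTF and 1036 FPKM in the transient library. This U2OS-PcTF level is likewise a small remainder of the subtraction. PTGS2, the inducible cyclooxygenase, was at 35.4 and 2.08 FPKM in mock and U2OS-PcTF (-4.35) and at 8.48 FPKM in the transient library. Acute-phase and complement genes were split 4 higher and 4 lower of 13. SERPINA1, the antiprotease alpha-1-antitrypsin, was at 8.69 and 70.2 FPKM (2.68), with 13.5 FPKM in U2OS-dTF, while C1S, a complement protease, was at 10.8 and 2.85 FPKM (-2.21). Of 5 kept MHC class I genes 1 was lower, the peptide-trimming ERAP1 at 35.0 and 11.5 FPKM (-1.93).

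**Figure D4:**
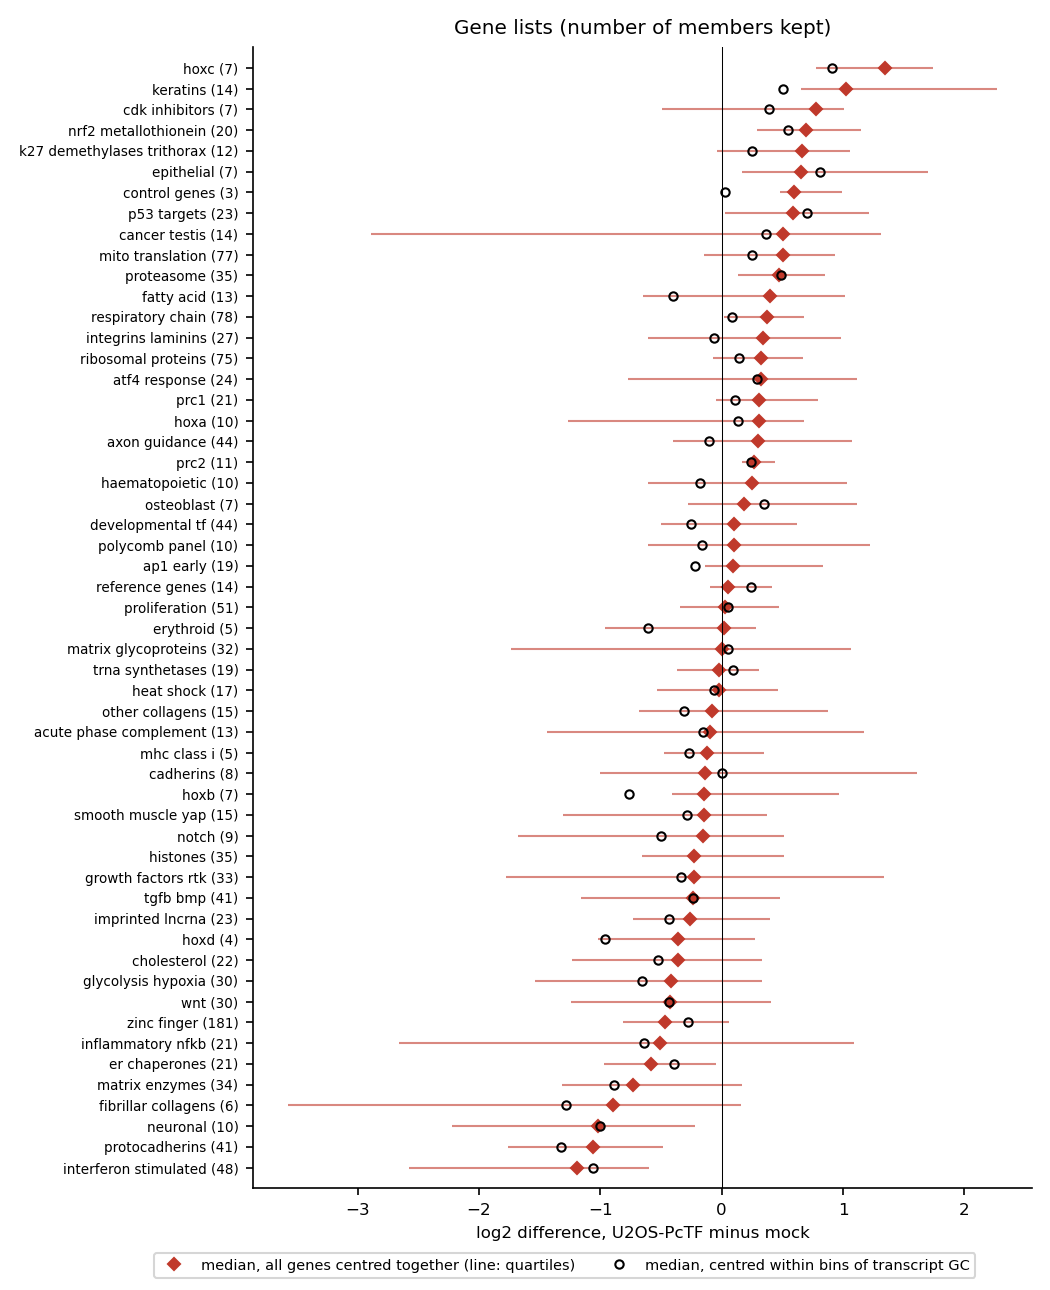
Median log2 difference between U2OS-PcTF and mock (x axis) for each of 54 gene lists, with the number of members kept in parentheses; red diamonds are medians with the common centring, lines join the quartiles, and open circles are medians centred within bins of transcript GC. Interferon-stimulated genes lie lowest at -1.19 and the HOXC cluster highest at 1.35.

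Matrix genes differed from mock in both directions. Of 6 kept fibrillar collagen chains, 3 were lower and 1 higher. COL11A1, a minor chain of cartilage fibrils, was at 108 and 6.77 FPKM (-4.29) and COL5A2 at 3.23 and 1.48 FPKM (-1.40). COL1A1, the main chain of type I collagen, was at 28.7 and 88.8 FPKM (1.30, or 0.50 within GC bins). Of 32 matrix glycoproteins and proteoglycans, 9 were higher and 9 lower. The 4 members farthest from mock were all lower, while the upper quartile of the list was 1.06. Besides POSTN, the lower ones included the elastic fibre protein MFAP4 (24.3 and 0.391 FPKM), the proteoglycan BGN (11.6 and 0.363 FPKM, -4.98, or -5.79 within GC bins), and the proteoglycan VCAN (9.55 and 0.325 FPKM). Of 34 matrix enzymes and inhibitors, 13 were lower and 8 higher, beside 11.4% and 18.5% of all kept genes, with a median of -0.73. MMP24 was among the higher ones, at 0.198 and 2.06 FPKM (2.54, or 1.73 within GC bins), from about 4 mock reads. LOX, which cross-links collagen, was at 72.6 and 11.9 FPKM (-2.93), and the proteoglycan-cleaving proteases ADAMTS1 and ADAMTS5 were at 5.57 and 2.38 FPKM in mock and at 0.325 and 0.116 FPKM in U2OS-PcTF. ADAMTS1 reads were 23 and 18 in the stable libraries and 121 in mock.

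Laminin chains also lay on both sides of mock. LAMA3, which assembles with LAMB3 into the same laminin, was at 0.117 FPKM in mock and 3.13 FPKM in U2OS-PcTF (3.57), and was at 0 in U2OS-dTF and 0.623 FPKM in the transient library. LAMA4, a chain of vessel and mesenchymal laminins, was at 14.3 and 1.32 FPKM (-3.66), and was also at 0 in U2OS-dTF and at 1.251 FPKM in the transient library. The collagen-binding integrin ITGA1 was at 27.9 and 5.15 FPKM (-2.74). In all, 7 of 27 integrin and laminin chains were higher and 5 lower. Of 8 kept classical cadherins, 3 were higher and 2 lower: CDH4 was at 0.635 and 8.58 FPKM (3.24, or 2.43 within GC bins), CDH13 at 0.940 and 8.57 FPKM (2.74), and CDH2, the mesenchymal N-cadherin, at 98.3 and 51.4 FPKM (-1.26). Epithelial markers were few: of 7 kept, 3 were higher and 0 lower. DSC2 lay below mock by less than 2-fold, at 10.7 and 8.45 FPKM (-0.66). The tight junction protein CLDN1 was at 3.59 and 15.6 FPKM (1.76, or 2.01 within GC bins). The junction proteins JUP and LSR were at 1.70 and 6.95 FPKM and at 0.985 and 4.47 FPKM, and their differences of 1.65 and 1.75 were 0.84 and 0.93 within GC bins, under 2-fold.

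Of 41 kept clustered protocadherins, neuronal recognition molecules encoded in tandem on chromosome 5, 21 were lower and 1 higher, beside 11.4% and 18.5% of all kept genes, with a median of -1.06 (-1.33 within GC bins). The median of the same genes was -3.50 in U2OS-dTF and -0.87 in the transient library. PCDHB8 was at 8.65 FPKM in mock and 1.40 FPKM in U2OS-PcTF, and PCDHB6 at 8.55 and 1.55 FPKM; both were at 0 in U2OS-dTF. PCDHB7 held 8 and 21 reads in the stable libraries and 53 in mock. The protocadherins of a cluster resemble each other and several share exons, so that reads could be split among them.

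Signalling genes showed large single differences inside small medians. Of 33 growth factors and their receptors, 9 were higher and 11 lower. FGF1 was at 0.744 and 12.4 FPKM (3.57), whereas HGF was at 1.32 FPKM in mock with under 1 read in the stable libraries, at least 87.4-fold lower. The neurotrophin receptor NTRK3 was at 1.81 and 0.0366 FPKM (-4.13). In the WNT list 8 of 30 were lower and 3 higher. LGR5 and LGR4, receptors for R-spondins that strengthen WNT signals, were at 57.2 and 39.9 FPKM in mock and 3.30 and 9.16 FPKM in U2OS-PcTF. In the TGF-beta and BMP list 11 of 41 were lower and 5 higher; SOSTDC1, a secreted BMP and WNT antagonist, was at 145 FPKM in mock, 14.2 FPKM in U2OS-PcTF, 0 in U2OS-dTF and 7.00 FPKM in the transient library. BMP2 was at 16.2 and 4.47 FPKM (-2.16). In the NOTCH list the target HEYL had 48 reads in mock and 0 in the stable libraries, at least 116-fold lower, the ligand JAG1 was at 7.79 and 2.62 FPKM (-1.86), and the receptor NOTCH1 was at 0.630 and 3.86 FPKM (2.12, or 1.30 within GC bins). Among axon guidance genes 12 of 44 were higher and 9 lower, with the receptor ROBO2 at 1.63 and 0.0226 FPKM.

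U-2 OS derives from bone, and osteoblast genes were examined for that reason. Of 7 kept, 2 were higher and 1 lower. The lower gene was MSX2, at 5.82 FPKM in mock and 3.41 FPKM in U2OS-PcTF (-1.08). TNFRSF11B, which encodes the RANKL decoy receptor osteoprotegerin, was at 35.4 FPKM in mock, 111 FPKM in U2OS-PcTF, 5.15 FPKM in U2OS-dTF, and 145 FPKM in the transient library. Thus the U2OS-PcTF and transient levels lay above mock and the U2OS-dTF level below it. RUNX2, the master factor of the lineage, was at 7.30 and 17.3 FPKM (0.91, or 1.155 within GC bins) and at 2.66 FPKM in U2OS-dTF. ALPL, alkaline phosphatase, was at 0.194 and 1.21 FPKM (1.83, or 1.02 within GC bins). Contractile and YAP-responsive genes were lower in 5 of 15 and higher in 1, with the matricellular genes CYR61 at 147 and 52.5 FPKM (-1.81) and CTGF at 174 and 76.1 FPKM (-1.52), and in U2OS-dTF at 139 and 127 FPKM.

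Proliferation genes were close to mock. Of 51 DNA replication and mitosis genes, 5 were higher and 2 lower, shares of less than the background, with a median of 0.03. CDK inhibitors differed one by one. CDKN2B, which encodes p15, was at 9.85 FPKM in mock, 0.505 FPKM in U2OS-PcTF, 0 in U2OS-dTF, and 3.38 FPKM in the transient library (-4.36). CDKN1B, which encodes p27, was at 21.03 and 69.9 FPKM (1.40), and CDKN1A, which encodes p21, at 16.0 and 40.6 FPKM (1.01, or 0.39 within GC bins), with 123 FPKM in U2OS-dTF. Of 23 kept p53 targets 11 were higher and 0 lower, with a median of 0.59 that was 0.70 within GC bins, and 18.5% of all kept genes were higher. TP53I3, an oxidoreductase induced by p53, was at 3.55 and 18.3 FPKM (2.01), FDXR, a mitochondrial reductase, at 0.487 and 3.34 FPKM (2.23), and PLK3, a stress kinase, at 0.285 and 2.40 FPKM (2.37). Within GC bins these differences were 1.203 for TP53I3, 1.41 for FDXR, and 1.57 for PLK3. FDXR and PLK3 rested on about 4 and 3 reads in mock. The median of the p53 targets was 0.96 in U2OS-dTF and 0.47 in the transient library. TP53I3, FDXR and PLK3 were at 24.0, 22.9 and 0.640 FPKM in U2OS-dTF.

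Stress and metabolic lists differed in sign. Of 20 NRF2 targets and metallothioneins 7 were higher and 1 lower, with a median of 0.70. MT2A, which binds zinc and copper, was at 17.1 FPKM in mock, 191 FPKM in U2OS-PcTF, 565 FPKM in U2OS-dTF, and 186 FPKM in the transient library (3.15). MT1E was at 10.2, 90.9, 347 and 38.6 FPKM in that order. All 3 comparison values of MT2A and MT1E were above mock. Of 30 glycolysis and hypoxia genes 11 were lower and 2 higher, where 11.4% and 18.5% of all kept genes were. The hypoxia markers CA9, a carbonic anhydrase, EGLN3, an oxygen-sensing hydroxylase, and VEGFA, the angiogenic factor, were at 4.25, 4.80 and 13.7 FPKM in mock and 0.312, 1.46 and 4.78 FPKM in U2OS-PcTF. CA9 reads were 7 and 5 in the stable libraries and 28 in mock, and its difference of -3.72 was -4.53 within GC bins. Of 22 cholesterol synthesis genes 9 were lower and 2 higher: HMGCS1, which makes the HMG-CoA that feeds the pathway, was at 39.96 and 11.96 FPKM (-2.05), SQLE, squalene epoxidase, at 77.8 and 24.7 FPKM (-1.98), and INSIG1, the sterol sensor partner, at 8.79 and 2.51 FPKM (-2.09). INSIG1 was at 27.7 FPKM in U2OS-dTF.

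Protein folding and ATF4 genes were also followed. Of 21 endoplasmic reticulum chaperones and folding enzymes, 4 were lower and 2 higher, with a median of -0.58; HSP90B1 was at 1535 and 607 FPKM (-1.66) and HSPA5, the chaperone BiP, at 194 and 104 FPKM (-1.22). Of 24 targets of ATF4, the factor of the amino acid response, 7 were higher and 5 lower. The amino acid transporter SLC7A5 was at 1.04 and 8.19 FPKM (2.54, or 1.74 within GC bins) and the folate enzyme ALDH1L2 at 3.52 and 0.496 FPKM (-2.92). Among immediate early factors 4 of 19 were higher and 1 lower; FOSL1, a subunit of AP-1, was at 4.05 FPKM in mock, 39.2 FPKM in U2OS-PcTF, 99.9 FPKM in U2OS-dTF and 12.3 FPKM in the transient library (2.92, or 2.29 within GC bins). Of 17 cytosolic heat shock genes 4 were lower and 1 higher, with the small heat shock protein CRYAB at 70.6 and 12.6 FPKM (-2.80).

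Medians of mitochondrial, ribosomal and proteasome genes lay above 0. The median was 0.50 for 77 mitochondrial ribosomal proteins, 0.37 for 78 respiratory chain genes, 0.33 for 75 cytosolic ribosomal proteins, and 0.48 for 35 proteasome subunits. Within GC bins the first 3 medians were 0.25, 0.08, and 0.14, and the proteasome median was 0.49. In U2OS-dTF the 4 medians were 1.30, 1.93, 2.09, and 0.81. Members 2-fold higher numbered 16, 8, 10 and 7 in the same order and members 2-fold lower 1, 1, 3 and 0, so that the share of higher members was near or below the 18.5% of all kept genes. PSMC3, an ATPase of the proteasome base, was at 9.07 and 42.7 FPKM (1.90).

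The remaining lists held mixed or sparse members. Of 181 kept zinc finger genes on chromosome 19, which encode mostly KRAB repressors, 32 were lower and 8 higher, with a median of -0.47 that was -0.28 within GC bins. ZNF439 was at 4.27 and 0.270 FPKM (-3.89), with 10 and 8 stable reads beside 49 in mock. Of 14 cancer-testis genes 5 were higher and 5 lower. MAGEA10 and MAGEC1, antigens of the X chromosome, were at 8.95 and 7.16 FPKM in mock and had no read in the stable libraries, at least 258-fold and 348-fold lower. MAGEC2 was at 2.86 FPKM in mock, 0.194 FPKM in U2OS-PcTF and 62.5 FPKM in U2OS-dTF. Of 14 kept keratins and keratin-associated genes 7 were higher and 2 lower; KRT81 had no read in mock and was at 1.87 FPKM, at least 4.21-fold higher. Of 10 neuronal genes 5 were lower and 2 higher, and of 23 imprinted genes and regulatory RNAs 4 were lower and 2 higher, with the imprinted growth factor IGF2 at 4.33 and 17.8 FPKM (1.69, or 0.88 within GC bins) and PEG3 at 34.6 and 13.3 FPKM (-1.69).

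Differences also depended on where a gene lies. Over genes at 1 FPKM or more on both sides, the median of chromosome 14 was 0.62 (369 genes, quartiles 0.19 and 0.99), and 81.0% of its genes were above 0. The chromosome 14 median was 0.67 within GC bins. It was 0.37 in U2OS-dTF (0.78 within GC bins) and -0.09 in the transient library (-0.02 within GC bins). All 7 windows of 10 Mb with at least 15 genes on chromosome 14 were above 0, from 0.34 to 0.93. Chromosome 18 lay lowest, at -0.52 (171 genes, -0.34 within GC bins), and chromosome 17 was at 0.40 (607 genes, 0.20 within GC bins).

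**Figure D5:**
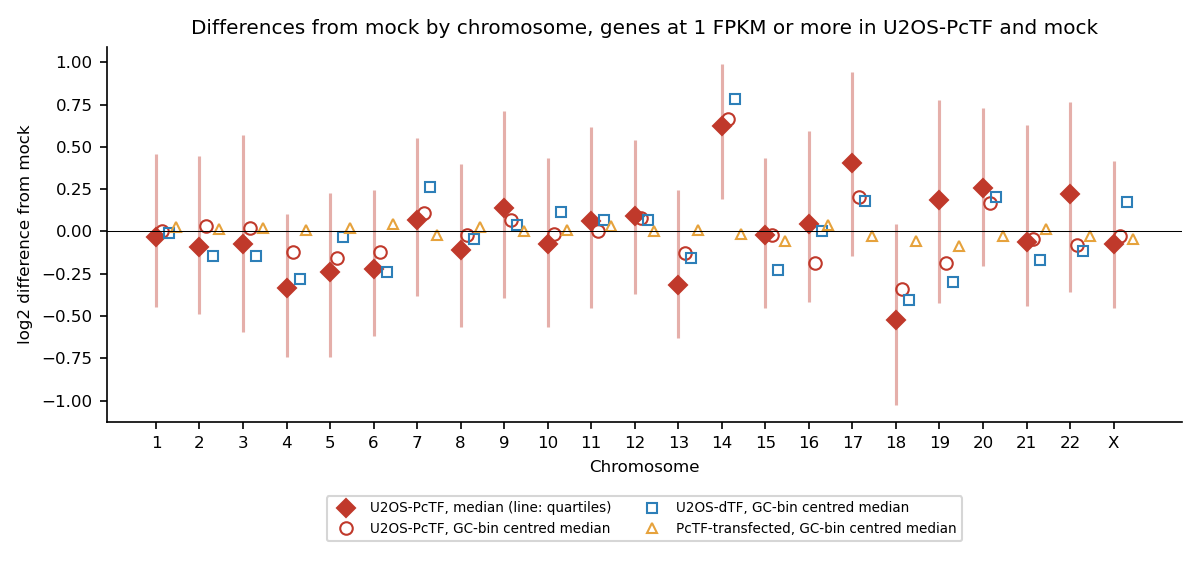
Median log2 difference from mock (y axis) by chromosome (x axis) over genes at 1 FPKM or more in U2OS-PcTF and mock; filled diamonds with quartile lines are U2OS-PcTF with the common centring, and open symbols are medians centred within GC bins for U2OS-PcTF, U2OS-dTF and PcTF-transfected cells. Chromosome 14 stands at 0.62 and 0.67 in U2OS-PcTF, at 0.78 in U2OS-dTF and at -0.02 in transfected cells.

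Of 258 windows of 10 Mb with at least 15 genes, the lowest was 60 to 70 Mb of chromosome 5 (hg19), at -1.38 over 32 genes. In that window 30 genes were below 0 and 22 were 2-fold lower, and the median was -1.02 within GC bins. In U2OS-dTF the same window was at -0.83, or -0.12 within GC bins, and in the transient library it was at -0.08. The following genes of this window were named after their values were seen. KIF2A, a mitotic kinesin, was at 135 FPKM in mock and 47.4 FPKM in U2OS-PcTF (-1.83). PPWD1, a spliceosome-associated isomerase, was at 83.9 and 12.3 FPKM (-3.08). CCNB1, the mitotic cyclin B1, was at 79.6 and 47.0 FPKM (-1.08, or -0.90 within GC bins). Some genes of the window overlap in position, such as TAF9 and RAD17, so that the count of genes overstates the number of separate values. The next lowest window was 0 to 10 Mb of chromosome 18, at -0.93 over 36 genes (-0.96 within GC bins), where U2OS-dTF was at -1.47 and the transient library at -0.13. Windows 170 to 180 Mb and 180 to 190 Mb of chromosome 4 were at -0.89 and -0.85, and at -1.26 and -2.25 in U2OS-dTF. Window 20 to 30 Mb of chromosome 17 was at 0.81 (0.76 within GC bins), and at 0.84 in U2OS-dTF. Window 130 to 140 Mb of chromosome 9, rich in GC, was at 0.88 and at 0.40 within GC bins. Copy number was not measured, and its part in these differences was not tested.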

How the data were processed

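Libraries of U-2 OS cells were made with the Ovation RNA-Seq kit from amplified cDNA and read as 50-bp single ends. Per the study's methods, reads were trimmed, aligned to hg19 with TopHat2 2.1.0, and summarised by Cuffdiff with the UCSC annotation. The authors deposited FPKM per gene in 2 U-2 OS tables; these also hold their own log2 fold change, test statistic, p-value, q-value and significance columns, which were not used. The U2OS-PcTF mean was obtained by taking the transfected library out of the deposited 3-library mean and was set to 0 where negative (125 genes). In 9 of these the rebuilt sum was negative by over 1% of the transfected level. Genes at 1 FPKM or more on either side were kept. Read numbers were derived from 1-read steps of the FPKM values. The mock step gave whole reads for 98.2% of 111 low values of single-exon genes. It was chosen on those same values, so this share describes the fit and is not a check. Outside the 1045 split genes, reads were derived from a reference transcript length and need not be whole. Their intervals and fold bounds rest on that length. Intervals are 95% exact binomial on the reads of both sides, in place of the planned Poisson interval on the mock reads alone, and a listed 0 allows up to 3 reads.

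No test was run, since mock is 1 library and neither stable library has its own value for most genes, and 2-fold differences were counted. Named genes were CBX8, the panel and control genes, the 20 largest and 20 smallest differences among genes that reached 10 FPKM on the higher side and span at least 300 bp, and from each of 54 lists the 4 members, or fewer, farthest from mock; others are named as chosen afterwards. Members and lists were chosen with earlier results of these data known. Centring within 20 GC bins was added after the data were seen. The steps were tested on simulated data. Python 3.11.15, numpy 2.4.6, pandas 2.3.3 and scipy 1.17.1 were used.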

Additional observations from a re-analysis of the deposited data

How the results depend on the processing

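The 2412 genes 2-fold higher became 1486 with a pseudocount of 1 FPKM, 1351 among genes at 5 FPKM or more and 1136 within GC bins, a setting chosen after seeing the data. The 1485 genes 2-fold lower became 832 at 5 FPKM or more, 2518 with no filter on low values and 949 with the deposited 3-library mean. With that mean, which contains the transfected library, the interferon-stimulated median turned from below to above mock, at 0.87, and so did XAF1 (0.33), CD74 (1.19), CXCL10 (2.88), CXCL11 (3.07), OAS2 (2.63), CCL5 (4.34), VCAM1 (0.15), C1S (1.01), and LCP1 (0.090); the construction of that mean accounts for its direction. No centring gave 3552 higher and 997 lower. Among 252 named genes a pseudocount of 1 FPKM moved 119 differences by more than the SD of 1 stable library (0.56 log2), by -3.24 to 3.36, and GC bins moved 83 of 235; their signs changed in 1 and 4. Of 23 chromosome medians these settings changed the sign of 0 and 6. No paired analysis was possible because mock is 1 library. Each stable library could be taken alone only for the genes split into reads, where both were 2-fold above mock in 17 of 22 and 2-fold below it in 116 of 124. Those genes were called from the mean of the same 2 libraries, so these counts are no independent support. Depth limits genes with few reads in mock, the shallower side.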
